A study of Mus musculus with 37 samples.

Results

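Axon guidance ligands and receptors are the families of secreted and membrane proteins that steer growing axons and, in the adult brain, take part in synapse formation and plasticity. Ephrins are cell-surface ligands of the Eph receptor tyrosine kinases. Semaphorins signal through plexins, with neuropilins as co-receptors of most class 3 semaphorins, Slits signal through Robo receptors, and netrins signal through Dcc and the Unc5 receptors. In the hippocampus these proteins help to sort axons and lay out synaptic layers, and several of them stay expressed in the adult.

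The genes were chosen by their symbols in the GENCODE M21 annotation, which gave 71 of the 48795 genes counted. They comprised 68 protein-coding genes (34 ligands and 34 receptors or co-receptors) and 3 antisense transcripts of Plxna4 whose symbols matched the same rule. RNA-seq of whole hippocampus was available for 3 Kdm1a-ifKO and 3 control male mice, with 1 library per mouse. Kdm1a is a demethylase of histone H3 lysine 4 that acts in repressor complexes such as coREST. Kdm1a-ifKOs carried Kdm1a f/f alleles and the Camk2a-creERT2 transgene, whose promoter is active in principal neurons of the forebrain, so other hippocampal cells keep the gene. Both groups were on a C57BL/6J background. Tamoxifen was given to both at 8 weeks, and littermates without the recombinase, labelled WT, served as controls. CTCF ChIA-PET maps chromatin loops between sites bound by the architectural protein CTCF. It was available for 1 library of excitatory neuron nuclei sorted from the hippocampus of another mouse line, also on a C57BL/6J background. These males, also labelled WT and treated with tamoxifen, carried Camk2a-creERT2 with the nuclear reporter CAG-Sun1/sfGFP and no Kdm1a f/f alleles, so they were not the littermate controls of the RNA-seq.

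The libraries held between 18985542 and 19469947 counts. Kdm1a itself reached 79.5, 81.1 and 79.6 CPM (read counts scaled to a fixed total per library) in controls and 39.3, 36.9 and 38.4 in Kdm1a-ifKOs. It fell by 1.07 ± 0.06 (SE) on the log2 scale (edgeR adjusted p = 6.24e-08, n = 3 per group). Control replicate 3 and Kdm1a-ifKO replicate 2 stood apart from the other libraries on the second principal component (16.6% of the variance), and results that rest on them are also given without them. Summed CPM of astrocyte markers (6 genes, 2 of them higher by the test used below) ranged from 1610 to 1741 in controls and from 1894 to 2076 in Kdm1a-ifKOs. The corresponding ranges for microglia (6 genes, 3 higher) were 292 to 318 and 334 to 419, and for thalamus and habenula (6 genes, 1 higher) 105 to 110 and 120 to 140. Striatal markers (5 genes, 1 higher) ranged from 59.7 to 63.7 and from 71.0 to 80.9, and those of choroid plexus (4 tested genes, 1 higher) from 36.0 to 60.1 and from 64.1 to 71.2. The tested choroid plexus markers did not move together, with log2 fold changes from -1.49 to 1.28 and a median of -0.37. The excitatory neuron markers Camk2a and Slc17a7 were abundant in both groups and were not called. None of the markers of CA1 and CA3 pyramidal cells, oligodendrocytes and their precursors, endothelium, ependyma and Cajal-Retzius cells passed the test. Among the markers that passed the test were Slc1a3 and Sox9 of astrocytes, Cx3cr1, Tmem119 and Csf1r of microglia, Pdgfrb of pericytes, Prkcd of thalamus, Ppp1r1b of striatum, Kl of choroid plexus and C1ql2 of dentate granule cells, all higher. Neurod6 of excitatory neurons and Vip and Npy of interneurons were lower. The part of these shifts in the results below was not tested, and in whole tissue fewer cells of a type and less RNA per cell cannot be told apart.

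In control hippocampus the guidance genes differed widely in level. Levels were compared between genes in TPM (transcript abundance on the same kind of scale), in which counts are first divided by a gene's total exon length. Of the 68 protein-coding genes, 34 exceeded 20 TPM, 7 exceeded 100 TPM, 9 lay under 5 TPM and 3 under 1 TPM. Slit1, a secreted ligand of Robo receptors, had the highest mean at 258 ± 8.12 TPM (SD, n = 3). The transmembrane ligand Efnb3 followed with 234 ± 20.2 TPM, and the libraries of both genes overlapped. Epha4 (182 ± 21.8), the netrin receptor Unc5a (179 ± 15.2) and the membrane-anchored semaphorin Sema7a (178 ± 12.2) came next and could not be ordered. Sema6b (122 ± 9.07) lay between these and the receptor Plxna1 (102 ± 6.98), without overlap with either. Ephb6 (98.1 ± 5.83), an Eph receptor that lacks kinase activity, overlapped with Plxna1 and with Efna3 (90.7 ± 5.81).

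A second tier held Plxna4 (71.2 ± 6.65), Epha7 (57.7 ± 2.85), Plxnb1 (57.7 ± 0.328), Sema4f (52.6 ± 3.65), Slit3 (49.2 ± 4.13), Plxnb2 (43.0 ± 1.63) and Epha10 (42.9 ± 2.03). The other 18 genes above 20 TPM ran without a gap from Epha5 (36.5 ± 3.65) to Sema6c (20.3 ± 0.293), each overlapping its neighbour. They were Robo3, Plxna2, both neuropilins Nrp1 and Nrp2, Sema6d, Sema3e, Plxnc1, Plxnb3, Sema4a, Sema5a, Plxna3, Sema4d, Unc5b, Efnb2, Epha6 and Robo2 between these ends. Ntn5 had the highest mean of the netrins at 16.2 ± 1.46 TPM. At the other end lay Efna4 (0.918 ± 0.25), Sema3a (0.895 ± 0.23) and Epha1 (0.50 ± 0.17).

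**Figure D1:**
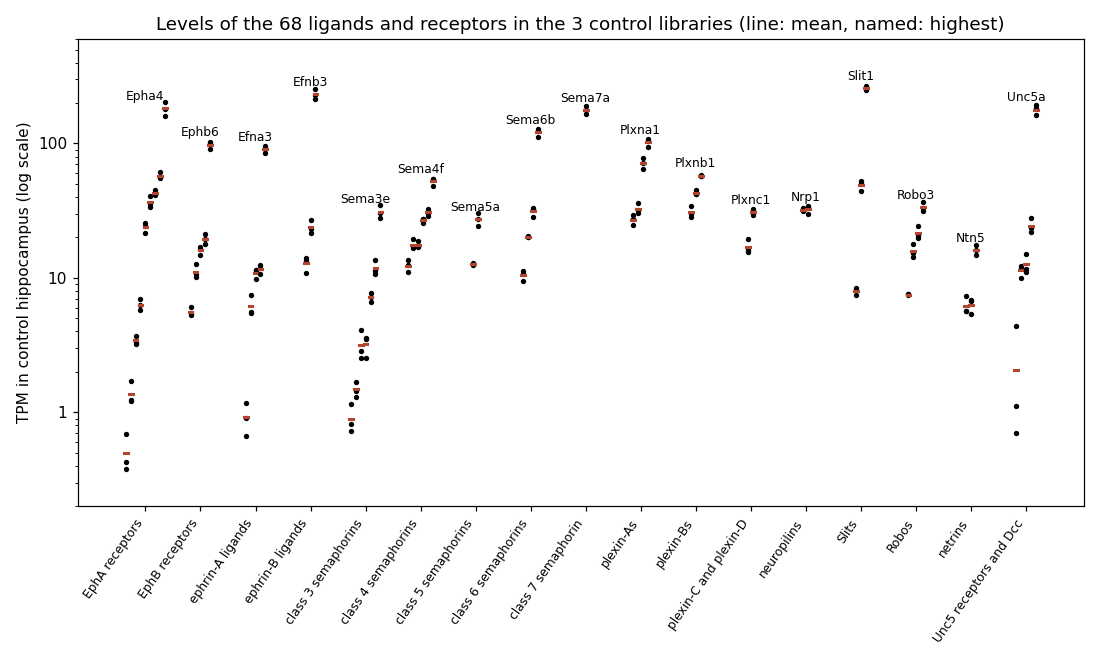
Each dot is 1 of the 3 control libraries and each red line a mean, in TPM on a log axis, for the 68 ligands and receptors by family. The named genes are the highest of each family, from Ntn5 at 16.2 TPM to Slit1 at 258 TPM.

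The comparison of Kdm1a-ifKOs with controls asked which guidance genes changed after loss of Kdm1a in adult neurons. Of the 71 genes, 67 passed the filter on low counts, and Epha1 and the antisense transcripts Plxna4os1, Plxna4os2 and Plxna4os3 did not. A gene was called at a Benjamini-Hochberg adjusted p under 0.05, adjusted over all 16799 genes tested in edgeR. In all, 7 genes were higher in Kdm1a-ifKOs (10.4% of the 67, beside 6.04 percent of all tested genes) and 9 were lower (13.4%, beside 2.82 percent), and the share called in either direction was 8.85 percent of all tested genes. The higher genes were Epha10, Efna1, Efna4, Sema4c, Sema4d, Sema5b and Plxnb1, and the lower genes were Epha3, Epha4, Epha5, Epha6, Sema7a, Plxna2, Slit2, Robo1 and Robo2. Only Efna4 and Epha10 of these exceeded a log2 fold change of 0.5 (beside 3.15 percent of all tested genes), and none fell below -0.5 (0.28 percent).

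Ligands and receptors were called in unequal numbers in the 2 directions. Of 34 tested ligands, 5 were higher (beside 6.04 percent of all tested genes) and 2 were lower (beside 2.82 percent). Of 33 tested receptors, 2 were higher, a share close to that of all tested genes, and 7 were lower (beside 2.82 percent). The difference between these counts was not tested. The ligands Efna4 and Sema5b kept their call whenever 1 library was left out. So did the receptors Epha10, Plxnb1, Epha6, Robo1 and Robo2, but none of the other called genes. The median log2 fold change was 0.03 for the ligands, -0.01 for the receptors, 0.02 for all 67 and -0.00 for all tested genes.

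**Figure D2:**
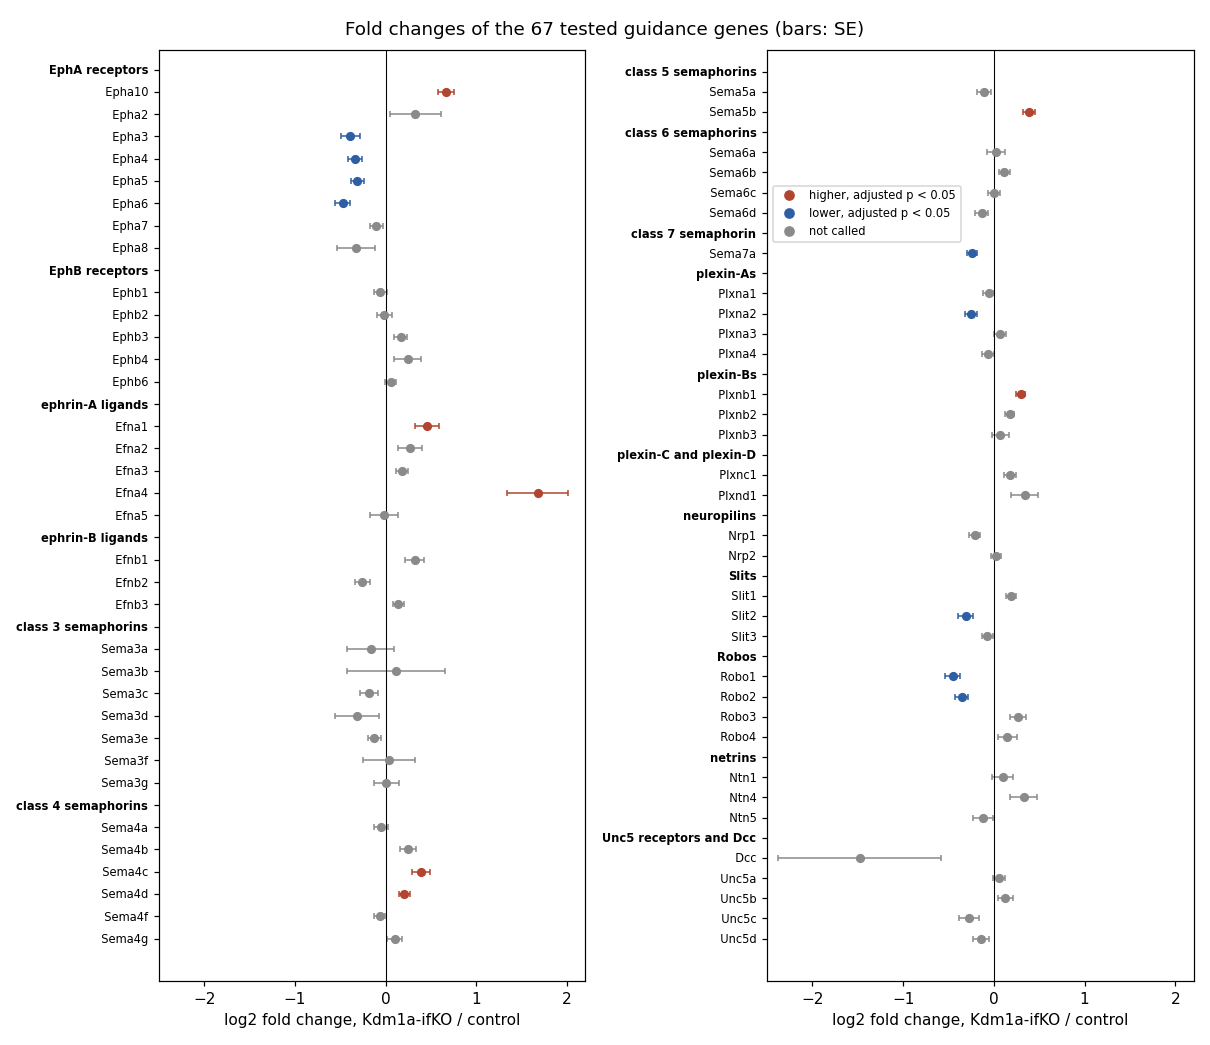
Points are log2 fold changes of Kdm1a-ifKOs over controls and bars their SE, derived from the edgeR F statistic, with 1 row for each of the 67 tested genes under its family. Higher genes are red, from Sema4d at 0.21 to Efna4 at 1.67, lower genes are blue, from Sema7a at -0.24 to Epha6 at -0.47, and Dcc has the widest bar.

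The EphA receptors bind mainly ephrin-A ligands. Of the 8 tested, 4 fell (beside 2.82 percent of all tested genes) and 1 rose (beside 6.04 percent). Epha4, the most abundant of them, had 365, 327 and 416 CPM in controls and 307, 277 and 292 in Kdm1a-ifKOs. Epha5 had 142, 147 and 172 CPM in controls and 125, 127 and 120 in Kdm1a-ifKOs. Every control library lay above every Kdm1a-ifKO library for both genes, although the lowest control came close to the highest Kdm1a-ifKO library for Epha4. Epha6 had 32.1, 28.9 and 34.4 CPM in controls and 24.4, 21.6 and 22.8 in Kdm1a-ifKOs. Epha3 had 12.6, 13.7 and 15.3 CPM in controls and 10.6, 11.2 and 9.81 in Kdm1a-ifKOs. The groups did not overlap for either gene.

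The log2 fold change was -0.47 ± 0.08 (SE, edgeR adjusted p = 0.00247, n = 3 per group) for Epha6. It was -0.39 ± 0.10 for Epha3 (adjusted p = 0.0336), -0.34 ± 0.08 for Epha4 (adjusted p = 0.0304) and -0.31 ± 0.07 for Epha5 (adjusted p = 0.0134). With the trends of transcript GC content and exon length removed, Epha5 moved to -0.10 and lost its call, and Epha3 moved to -0.25 and lost its call. Without control replicate 3 and Kdm1a-ifKO replicate 2, Epha4 stood at -0.20 (adjusted p = 0.0269).

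Epha10, a receptor without kinase activity, ran against the other called EphA receptors. It had 81.6, 76.0 and 75.5 CPM in controls and 114, 114 and 142 in Kdm1a-ifKOs. Kdm1a-ifKO replicate 3 was the highest, and all 3 Kdm1a-ifKO libraries lay well above the controls. The log2 fold change was 0.67 ± 0.09 (edgeR adjusted p = 0.000925). Epha2, Epha7 and Epha8 were not called, with values of 0.33 ± 0.28, -0.10 ± 0.07 and -0.33 ± 0.21. The median of the 8 tested EphA receptors was -0.32. None of the 5 EphB receptors was called, and their values lay between -0.06 (Ephb1) and 0.24 (Ephb4).

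Among the ephrin-A ligands, 2 of 5 rose (beside 6.04 percent of all tested genes) and none fell (beside 2.82 percent). Efna4 had 9, 7 and 5 counts in controls and 27, 22 and 21 in Kdm1a-ifKOs, so that it stayed scarce in both groups. The control counts alone would not have passed the filter on low counts. Efna4 therefore entered the test only through the group where it is higher. Its level was 0.918 ± 0.25 TPM in controls and 2.98 ± 0.41 TPM in Kdm1a-ifKOs (SD, n = 3). The groups did not overlap, and the log2 fold change of 1.67 ± 0.34 (edgeR adjusted p = 0.00751) was the only one among the called genes over 1 (beside 1.36 percent of all tested genes), and none lay under -1 (0.0655 percent). An antisense gene, 4731419I09Rik, overlaps exons of Efna4 and had 17, 15 and 28 counts in controls and 33, 30 and 30 in Kdm1a-ifKOs (log2 fold change 0.58, adjusted p = 0.222). The strand setting of the counting is not given in the sources used here. It is therefore not known how reads on the overlapping exons of these 2 genes were counted. Epha10, Epha6, Sema4c and Plxnb1 also overlap a gene on the other strand, with at most 20 counts in any library.

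Efna1 had 5.28, 5.25 and 4.57 CPM in controls and 6.58, 7.36 and 6.78 in Kdm1a-ifKOs. All Kdm1a-ifKO libraries lay above all controls, and the log2 fold change was 0.46 ± 0.13 with an edgeR adjusted p of 0.0488, close to the threshold. It lost its call in each of the 6 fits that left out 1 library (adjusted p from 0.0723 to 0.132). Efna2 (0.27 ± 0.13) and Efna3 (0.18 ± 0.07) were not called although their groups did not overlap, and Efna5 stood at -0.02 ± 0.15. The groups also did not overlap for the uncalled ephrin-B ligands Efnb1 (0.32 ± 0.11), Efnb2 (-0.26 ± 0.08) and Efnb3 (0.14 ± 0.06). Over all 67 tested guidance genes, the Kdm1a-ifKO libraries lay entirely above the controls for 16 genes (23.9%, beside 15.7 percent of all tested genes) and entirely below for 12 (17.9%, beside 14.4 percent).

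**Figure D3:**
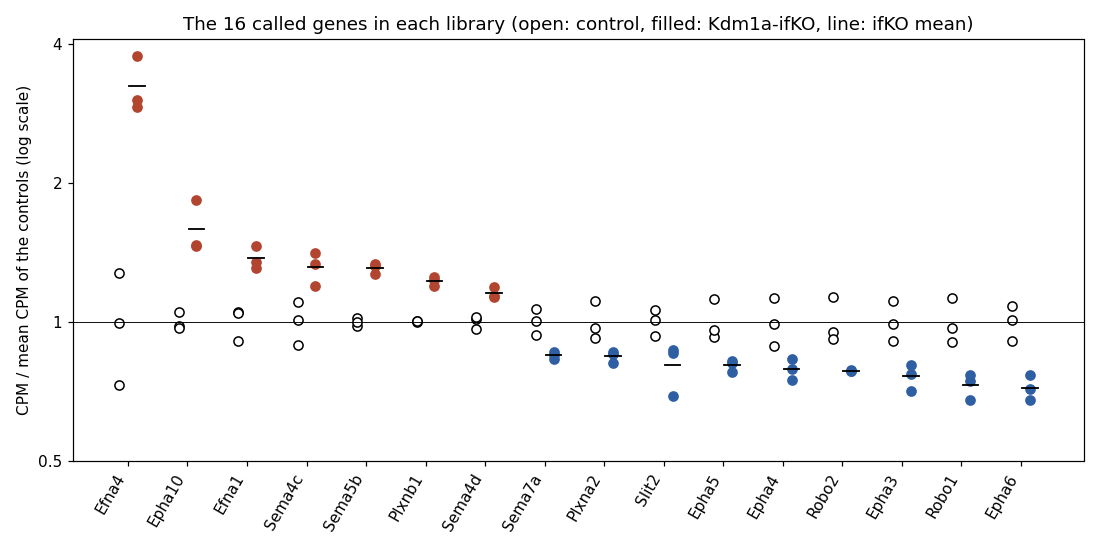
CPM of each library divided by the control mean of that gene, on a log axis, for the 16 called genes, with open circles for controls, filled circles for Kdm1a-ifKOs and a line at the Kdm1a-ifKO mean. No called gene has overlapping groups, and only Efna4 and Epha10 exceed a log2 fold change of 0.5.

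Efna1, Efna3 and Efna4 are neighbours on chromosome 3 (GRCm38), with 32.8 kb between Efna1 and Efna3, 10.4 kb between Efna3 and Efna4, and no other protein-coding gene lying wholly between them. Their upstream sequences are shown with that of Epha10, since Efna4 and Epha10 were the called genes beyond a log2 fold change of 0.5 and Efna1 and Efna3 allow a comparison within the cluster. Each sequence is the 250 bases before the outermost start site in RefSeq (GRCm38.p6), 5′ to 3′ along the gene. The GENCODE M21 bodies of Epha10, Efna1 and Efna3 start further upstream. The Epha10 sequence lies wholly inside its body, and the Efna1 and Efna3 sequences lie partly inside theirs. Capitals mark the motifs CCAAT and GGGCGG together with TATAAA, searched on both strands. The windows are chr3:89280952-89281201 (minus strand) for Efna1, chr3:89322940-89323189 (minus) for Efna3, chr3:89338029-89338278 (minus) for Efna4 and chr4:124881535-124881784 (plus) for Epha10.
Efna1: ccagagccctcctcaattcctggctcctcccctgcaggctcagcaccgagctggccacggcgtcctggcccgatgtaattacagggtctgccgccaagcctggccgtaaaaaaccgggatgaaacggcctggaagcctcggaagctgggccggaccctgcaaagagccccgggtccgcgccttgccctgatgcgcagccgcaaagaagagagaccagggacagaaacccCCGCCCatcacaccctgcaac
Efna3: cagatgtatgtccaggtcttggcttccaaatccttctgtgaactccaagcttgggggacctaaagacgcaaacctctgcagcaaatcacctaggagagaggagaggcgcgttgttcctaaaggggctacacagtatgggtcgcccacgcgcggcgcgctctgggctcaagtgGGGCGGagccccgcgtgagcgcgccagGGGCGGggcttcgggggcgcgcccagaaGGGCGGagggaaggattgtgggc
Efna4: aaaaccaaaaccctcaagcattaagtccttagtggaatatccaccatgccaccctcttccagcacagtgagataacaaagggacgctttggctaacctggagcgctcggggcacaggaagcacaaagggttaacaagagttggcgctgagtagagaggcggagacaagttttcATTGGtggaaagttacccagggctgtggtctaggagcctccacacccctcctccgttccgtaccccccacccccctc
Epha10: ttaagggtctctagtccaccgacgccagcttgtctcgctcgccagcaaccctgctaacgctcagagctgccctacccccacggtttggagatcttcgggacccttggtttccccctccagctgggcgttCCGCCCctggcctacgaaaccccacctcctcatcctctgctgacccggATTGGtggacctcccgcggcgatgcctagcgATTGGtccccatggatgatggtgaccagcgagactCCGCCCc

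The Efna4 window held 7 CG dinucleotides, 1 CCAAT and no GGGCGG, while the Efna3 window held 19 CG dinucleotides and 3 GGGCGG and the Efna1 window 16 and 1. The Epha10 window held 17 CG dinucleotides, 2 CCAAT and 2 GGGCGG, and none of the windows held TATAAA. GC content was 54.4% for Efna4, against 63.6% for Efna3, 64.8% for Efna1 and 63.6% for Epha10. Of the 68 genes, 58 matched the promoter table, with 74 windows and a median GC content of 64.4%, beside 52.4% over all 32851 windows of the table, which also holds genes that are not protein-coding. GGGCGG was found in 70.3% of the 74 windows and in 32.7% of all, CCAAT in 27.0% and 33.8%, and TATAAA in 2.70% and 12.4%. GGGCGG was held by 7 of 11 windows of the higher genes (63.6%), 6 of 11 of the lower genes (54.5%) and 38 of 51 of the uncalled genes (74.5%). Some genes had several windows, among them Sema4d and Robo2, and no Robo2 window held the motif.

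Among the semaphorins, 3 of 20 rose (beside 6.04 percent of all tested genes) and 1 fell (beside 2.82 percent). Sema5b, a transmembrane semaphorin, had 22.0, 22.9 and 22.5 CPM in controls and 29.7, 30.0 and 28.5 in Kdm1a-ifKOs. The spread within each group was small beside the difference, and the log2 fold change was 0.39 ± 0.07 (edgeR adjusted p = 0.00263). Sema4c had 15.7, 14.4 and 12.7 CPM in controls and 17.1, 20.2 and 19.1 in Kdm1a-ifKOs (0.39 ± 0.10, adjusted p = 0.0254). Sema4d, a ligand of Plxnb1, had 52.3, 53.0 and 50.0 CPM in controls and 58.6, 61.5 and 59.0 in Kdm1a-ifKOs (0.21 ± 0.06, adjusted p = 0.0394). Sema7a, which binds Plxnc1 and integrins, had 157, 148 and 138 CPM in controls and 127, 125 and 122 in Kdm1a-ifKOs (-0.24 ± 0.06, adjusted p = 0.0176). The groups did not overlap for any of these 3 genes.

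No class 3 or class 6 semaphorin was called. A pair of the scarcer class 3 genes followed a single library. Sema3b had 33, 30 and 38 counts in controls and 20, 74 and 19 in Kdm1a-ifKOs, and Sema3f had 87, 89 and 62 in controls and 53, 125 and 74 in Kdm1a-ifKOs. Both were highest in Kdm1a-ifKO replicate 2, where the fibroblast collagens Col1a1 (15.8 CPM, other libraries 6.11 to 7.25) and Col1a2 (26.7 CPM, other libraries 5.86 to 11.2) were also highest. Summed CPM of the 7 pericyte and fibroblast markers ranged from 224 to 235 in controls and from 202 to 283 in Kdm1a-ifKOs, and the part of this library's cell makeup was not tested. Sema3b stood at 0.11 ± 0.54 with all libraries and at -0.83 without Kdm1a-ifKO replicate 2, and Sema3f at 0.04 ± 0.29 and -0.36.

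Of the plexins, the receptors of semaphorins, 1 of 9 rose (beside 6.04 percent of all tested genes) and 1 fell (beside 2.82 percent). Plxnb1 had 140, 139 and 139 CPM in controls and 166, 174 and 172 in Kdm1a-ifKOs. The controls were almost identical, and the log2 fold change was 0.29 ± 0.05 (edgeR adjusted p = 0.00185). Plxna2, a receptor of class 6 semaphorins among others, had 137, 130 and 157 CPM in controls and 121, 120 and 115 in Kdm1a-ifKOs. Its log2 fold change of -0.25 ± 0.07 (adjusted p = 0.0337) moved without control replicate 3, the highest library, to -0.17 (adjusted p = 0.0613). Plxna1 (-0.06 ± 0.06), Plxna4 (-0.07 ± 0.07), Plxnb2 (0.17 ± 0.05), Plxnc1 (0.18 ± 0.06) and Plxnd1 (0.34 ± 0.15) were not called. Neither were the neuropilins Nrp1 (-0.21 ± 0.06, adjusted p = 0.0541) and Nrp2 (0.02 ± 0.06).

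Robo1 and Robo2, receptors of Slit ligands, fell, as did Slit2. Robo1 had 59.4, 63.9 and 74.1 CPM in controls and 50.4, 48.9 and 44.6 in Kdm1a-ifKOs. Robo2 had 87.7, 84.7 and 104 CPM in controls and 72.0, 72.4 and 71.9 in Kdm1a-ifKOs. Control replicate 3 was the highest library for both, and the groups did not overlap. The log2 fold change was -0.46 ± 0.08 (edgeR adjusted p = 0.00455) for Robo1 and -0.35 ± 0.07 (adjusted p = 0.00905) for Robo2. Both kept their call without control replicate 3 and Kdm1a-ifKO replicate 2, at -0.37 for Robo1 and -0.26 for Robo2. With the GC and exon length trends removed Robo2 moved to -0.18 and kept its call.

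Slit2 had 47.7, 51.7 and 54.3 CPM in controls and 44.4, 43.9 and 35.4 in Kdm1a-ifKOs, with Kdm1a-ifKO replicate 3 the lowest. Its log2 fold change was -0.31 ± 0.09 (edgeR adjusted p = 0.0457), and it moved to -0.16 and lost its call with the GC and exon length trends removed. The abundant Slit1 pointed the other way without passing the test, at 0.18 ± 0.06 (adjusted p = 0.059), and Slit3 stood at -0.07 ± 0.06. Robo3 and Robo4, which lie 0.553 kb apart on chromosome 9, were not called, at 0.26 ± 0.09 and 0.15 ± 0.10. Robo1 and Robo2 lie 846 kb apart on chromosome 16 with no protein-coding gene wholly between them.

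No netrin, Unc5 receptor or Dcc was called. Dcc, the receptor through which netrins attract axons, had the largest negative fold change of all 67 tested genes, -1.48 ± 0.89 (edgeR adjusted p = 0.401). It had 70, 44 and 273 counts in controls and 48, 66 and 30 in Kdm1a-ifKOs. The value rests on control replicate 3, and without that library it was -0.28. Unc5a, the most abundant netrin receptor, stood at 0.06 ± 0.06, Unc5c at -0.27 ± 0.11 and Ntn4 at 0.33 ± 0.15.

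Gene body length, from the first to the last annotated base, went with the direction of change. Of the 9 lower genes, 8 exceeded 100 kb, and Sema7a at 22.8 kb was the exception. Their median body length was 325 kb, against 24.5 kb for the 7 higher genes and 43.8 kb for the 51 uncalled genes. Among the 32 tested guidance genes over 100 kb, 8 were lower (25.0%, beside 6.3 percent of all tested genes of that length) and 2 were higher (6.25%, beside 4.2 percent). Among the 35 shorter genes, 1 was lower (2.86%, beside 2.25 percent) and 5 were higher (14.3%, beside 6.35 percent). Control replicate 3, which stood apart, was the highest control for all 8 lower genes over 100 kb. Without it and Kdm1a-ifKO replicate 2, these 8 genes kept a negative log2 fold change, but Epha3, Plxna2 and Slit2 were not called. The relation to body length was not recomputed in that fit.

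Log2 fold changes were negative for 24 of the 32 long genes and for 7 of the 35 shorter ones. Across the 67 genes, Spearman's rho between body length and log2 fold change was -0.64, and across the 16752 tested genes with an annotated body it was -0.14. Genes share libraries and are not independent replicates, so these values are descriptions. Median exon length was 16.5 kb for the lower and 7.08 kb for the higher genes, and median transcript GC content was 45.6% and 57.1%. With the trends of GC content and exon length removed, rho was -0.43 for the 67 genes and -0.01 for all tested genes.

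**Figure D4:**
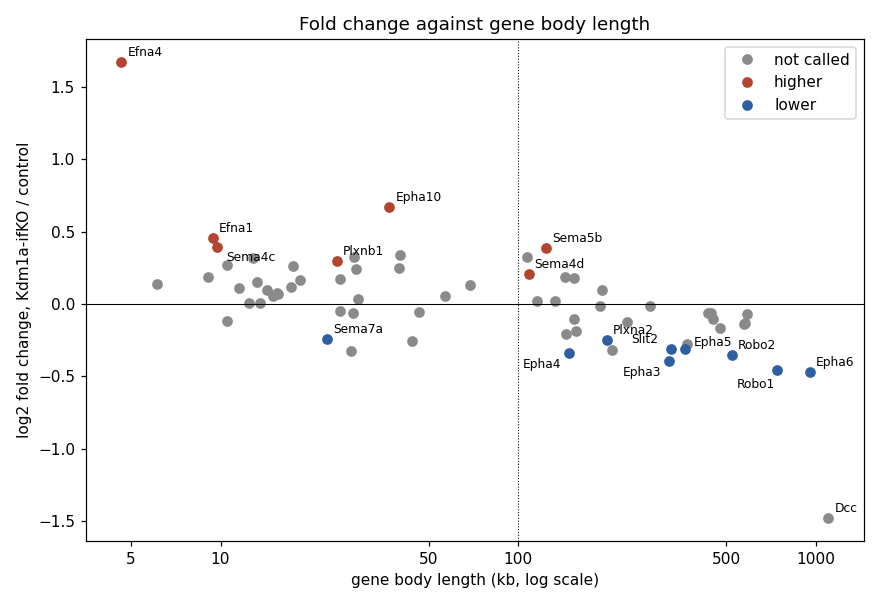
Log2 fold change against gene body length in kb (log axis) for the 67 tested genes, red for higher, blue for lower and grey for uncalled, with a dotted line at 100 kb. Blue points lie to the right except Sema7a at 22.8 kb, and 24 of the 32 genes over 100 kb have a negative value.

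Other genes of guidance signalling, a list of 65 co-receptors, further cues and intracellular effectors that were all tested, changed in 6 cases. Of these, 3 were higher (beside 6.04 percent of all tested genes) and 3 were lower (beside 2.82 percent), with a median log2 fold change of -0.00. Flrt2, a membrane protein that binds Unc5 receptors, had 47.0, 46.8 and 59.7 CPM in controls and 33.5, 39.8 and 37.9 in Kdm1a-ifKOs (-0.47 ± 0.10, edgeR adjusted p = 0.0221). Ptk7, a kinase-dead receptor of planar cell polarity signalling, had 9.57, 8.24 and 8.97 CPM in controls and 15.0, 14.3 and 13.5 in Kdm1a-ifKOs (0.68 ± 0.10, adjusted p = 0.000833). In neither gene did the groups overlap. Mical1, an oxidoreductase that disassembles actin downstream of plexins, rose (0.44 ± 0.11, adjusted p = 0.0259), as did the actin-binding protein Ablim3 (0.30 ± 0.07, adjusted p = 0.0228). The Ras GTPase-activating protein Rasa1 (-0.24 ± 0.07, adjusted p = 0.0389) and the Rac and Cdc42 effector Pak1 (-0.16 ± 0.05, adjusted p = 0.0491) fell. Rasa1 moved to -0.11 (adjusted p = 0.211) with the GC and exon length trends removed and to -0.15 (adjusted p = 0.164) without both libraries that stood apart. Pak1 was not called with DESeq2 size factors (adjusted p = 0.0511), upper-quartile scaling (0.116), no filter on low counts (0.0701) or a minimum of 10 summed counts (0.0671), and Mical1 was called neither by DESeq2 (adjusted p = 0.0547) nor without both libraries that stood apart (0.0803). Ptk7 alone kept its call in all 6 fits that left out 1 library.

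Of the 16 called guidance genes, 7 kept their call in all 6 fits that left out 1 library, namely Epha10, Efna4, Sema5b, Plxnb1, Epha6, Robo1 and Robo2. The other 9 did not. In these fits, too, Efna4 passed the filter on low counts through the Kdm1a-ifKO libraries alone. Epha5 lost its call without Kdm1a-ifKO replicate 1 or 3. Epha3 and Slit2 lost theirs without Kdm1a-ifKO replicate 1 or 3 or control replicate 2 or 3. Epha4 lost its call without any 1 Kdm1a-ifKO replicate or control replicate 1, and Plxna2 without any 1 Kdm1a-ifKO replicate or control replicate 3. Sema7a depended in the same way on Kdm1a-ifKO replicates 1 and 3 and control replicates 1 and 2, and Sema4c on Kdm1a-ifKO replicates 2 and 3 and control replicates 2 and 3. Efna1 and Sema4d lost theirs in all 6 fits. All 16 kept their direction in all 6 fits. Without both libraries that stood apart, 6 of them were not called, with log2 fold changes of -0.35 for Epha3, 0.35 for Efna1, 0.27 for Sema4c, 0.16 for Sema4d, -0.17 for Plxna2 and -0.31 for Slit2. The same fit called Sema4b (0.29, edgeR adjusted p = 0.0481), Slit1 (0.22, adjusted p = 0.0042) and Robo3 (0.32, adjusted p = 0.00473) as higher. DESeq2, the tool of the study, did not call Epha3 (adjusted p = 0.0666), Efna1 (adjusted p = 0.138) or Sema4d (adjusted p = 0.0781) and called Slit1 as higher (adjusted p = 0.0407).

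The CTCF loops described where these genes lie in neuronal chromatin of the Camk2a-creERT2 reporter strain, which retains Kdm1a. The library held 27786 loops with 3 to 1242 paired-end tags (PETs) each, and without a second library it has no replicate error. Of the 68 protein-coding guidance genes, 54 (79.4%) had a loop anchor within 10 kb of the gene body, beside 56.9% of all tested genes. For bodies over 100 kb the shares were 68.8% of 32 and 67.5% of all tested genes, and for shorter bodies 88.9% of 36 and 55.2%. A loop containing the whole body was found for 56 genes (82.4%, beside 83.1% of all tested genes).

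The loop with the most PETs at a called gene was at Sema7a, with 553 PETs between anchors at chr9:57928213-57957819 and chr9:57983999-58006825 (GRCm38), the second of which lay within 10 kb of Cyp11a1. Sema4c had a loop of 100 PETs spanning 136 kb, Plxnb1 one of 96 PETs spanning 34.0 kb and Sema5b one of 53 PETs spanning 87.7 kb. Epha5, Slit2 and Sema4d had no anchor within 10 kb. A pair of genes is described as joined where a loop had 1 anchor within 10 kb of each gene body. Efna3 and Efna4 were joined by loops of 37 and 32 PETs and by further loops of 3 or 4 PETs. The second anchor of the loop of 37 PETs, chr3:89338601-89341557, lay outside the Efna4 body. The anchors of the loop of 32 PETs were chr3:89316178-89319894, inside the Efna3 body, and chr3:89333170-89338432, which covers the Efna4 window printed above. Robo1 and Robo2 were joined by 1 loop of 4 PETs spanning 1417 kb, and Sema3b and Sema3f by loops of 29 and 6 PETs. The loops of 29 and 6 PETs had no anchor on the Sema3f body.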

How the data were processed

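The guidance genes, gene lists and tests were chosen with earlier results of these data known. The authors trimmed single-end poly-A reads with cutadapt 1.18, aligned them to mm10 (GRCm38) with HISAT2 2.1.0, and used HTSeq 0.11.1 to count, for each Ensembl gene, the reads on nuclear chromosomes that mapped with high quality. The deposited values are raw read counts, without normalization. The deposited loop file holds PET counts per pair of anchors, which the authors made with ChIA-PIPE, keeping loops of at least 3 PETs with a CTCF peak at both anchors.

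The 3 Kdm1a-ifKO and 3 control libraries were compared with the robust quasi-likelihood test of edgeR 4.0.16 under R 4.3.3. Low counts were removed by filterByExpr, libraries were scaled by TMM, the model held genotype alone, and p-values were adjusted by Benjamini-Hochberg over all 16799 tested genes. The SE of a log2 fold change was derived as its absolute value divided by the square root of the quasi-likelihood F statistic. The study used DESeq2, which served here as an alternative (version 1.42.0). The script was tested on simulated data. Symbols, bodies and exon lengths came from GENCODE M21, which matched 99.1% of the genes counted. CPM uses TMM-scaled library sizes and TPM the counts divided by exon length, so levels ignore which isoform is used. Positions were analysed in Python 3.11.15 with pandas 2.3.3. Other alternatives were other scalings and filters, a replicate block and leaving out each library. Added after the data were seen were leaving out the pair of libraries apart on the second component and removing, in each library, loess trends with transcript GC content and exon length.

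Genes named are called members, members beyond a log2 fold change of 0.5, members over 20 TPM or highest in their family in controls, untested members, and called genes of the signalling and marker lists. Members with other values given to describe a family (Sema3b, Sema3f, Slit3 and other uncalled genes) and the collagens were chosen after their values were seen. Between replicates of a group, counts differed by 2.95 to 7.59 times the sampling variance (chi-square per degree of freedom), so none was a duplicate. Precision was set by the 3 mice per group and, for genes such as Efna4, by few counts. Other assays of the series were not used here. The summed level of the excitatory neuron markers and 1 of these markers are not reported here.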

Additional observations from a re-analysis of the deposited data

How the results depend on the processing

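Kdm1a kept its direction and call in every alternative run (log2 fold change from -1.10 to -1.04), and no called guidance or signalling gene changed direction. Many uncalled genes changed sign in at least 1 alternative, among them Sema3b, Sema3f, Efna5, Epha7, Nrp2, Plxna4 and Unc5a, and also Ephb2, Sema3a and Sema6a. The number of higher guidance genes was 7, but 13 without a filter on low counts and 4 to 7 when 1 library was left out. The number of lower genes was 9, with 3 to 8 when 1 library was left out. Without the filter 25 guidance genes were called in all, against 16. Higher signalling genes numbered 3, but 5 without the filter and 1 to 4 with 1 library left out. Lower signalling genes numbered 3, but 5 in DESeq2, 8 without the filter, 5 without both libraries apart on the second component, 5 with GC and exon length trends removed and 0 to 5 with 1 library left out. The median log2 fold change of the EphA receptors was -0.32, but -0.22 without both libraries apart and -0.18 with the trends removed, and from -0.35 to -0.22 with 1 library left out. The median of all tested members ran from -0.019 to 0.059 and that of the ephrin-A ligands from 0.19 to 0.33 in those fits. By CPM in place of TPM, 12 of 16 families kept their most abundant gene. Guidance genes with a loop numbered 54, but 32 with loops of at least 10 PETs.

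Same-numbered libraries were not more alike than others, with correlations of -0.03, -0.09 and -0.14 between their deviations from the group means. Other pairs of a control and a Kdm1a-ifKO library ran from -0.09 to 0.16, the last for control replicate 3 and Kdm1a-ifKO replicate 2. The labels used here give no litter, so pairing by litter could not be told. With a replicate block 10 guidance genes were called, 4 higher and 6 lower, and 1 signalling gene was lower. Over all tested genes, 1014 higher and 473 lower calls became 1447 and 1090 without the filter, 797 and 249 with the block, 735 and 164 when Kdm1a-ifKO replicate 1 was dropped, and 646 and 137 when replicate 3 of that group was dropped. The causes of these differences were not tested.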
